A study of Mus musculus with 20 samples.

Results

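Macrophage genes were followed in mouse ovarian antral follicles as 10 genes picked by symbol from the 39253 genes of the count table. They were Adgre1, Csf1r, Cd68, Ptprc, C1qa, C1qb, C1qc, Lyz2, Mrc1 and Tyrobp. All 10 passed the filter on low counts and were among the 17810 genes tested. The genes were not picked by a measured difference between groups, but earlier results of these data were known when they were chosen. CD-1 mice, an outbred stock for which the labels name no genotype, drank plain water or water with iodoacetic acid, a disinfection by-product, at 10 mg/L or 500 mg/L for 35 days from 40 days of age. Antral follicles of 220 to 400 µm were dissected in diestrus at 75 days, and each library pooled the 30 to 40 follicles of 1 mouse. Per the table's column headers, experiment 1 joined the 500 mg/L group (n = 5) with control replicates 6 to 10, and experiment 2 joined the 10 mg/L group (n = 5) with control replicates 1 to 5. Both doses were therefore compared with all 10 controls and with the 5 controls of their own experiment, and a direct difference between the doses cannot be told apart from a difference between the experiments.

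Macrophages live in the theca and stroma around growing follicles and enter atretic follicles and corpora lutea, where they clear dying cells and debris. They depend on the growth factors CSF1 and IL34, which both bind the receptor that Csf1r encodes. In tissue macrophages the complement component C1q, built from the chains A, B and C, marks dying cells for uptake, and DAP12, the adaptor that Tyrobp encodes, carries signals from surface receptors through kinases such as SYK. In libraries of whole follicles, fewer macrophages and less RNA per macrophage cannot be told apart.

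Genes that are read together in 1 cell type often share sites for its transcription factors, so the promoters of the members were set beside their values. PU.1, encoded by Spi1, is a factor that macrophages need, and it binds purine-rich sites with a GGAA core. The motif AGGAAGT, chosen with the sequences in view, was searched on both strands (as ACTTCCT on the other) in the 250 bases before each start in RefSeq's promoter table of GRCm38.p6. Of the 6 members with an entry, 5 held it (Ptprc, C1qb, C1qc, Lyz2 and Mrc1) and Cd68 did not. It lay in 7.69% of the 32851 promoters of the table, and 8.8% of its 27025 genes had at least 1 promoter with it. Such a match is a description of the letters and not evidence of binding. The windows below show the motif in capitals, 5′ to 3′ on the strand of the gene, for 4 members and for Lyz1, the neighbouring copy of Lyz2.
C1qb, chr4:136886207-136886293, minus strand: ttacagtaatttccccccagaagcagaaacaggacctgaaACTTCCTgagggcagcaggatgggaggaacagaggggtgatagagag
C1qc, chr4:136893063-136893149, minus strand: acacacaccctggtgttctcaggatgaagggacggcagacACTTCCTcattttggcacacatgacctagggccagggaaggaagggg
Mrc1, chr2:14229164-14229249, plus strand: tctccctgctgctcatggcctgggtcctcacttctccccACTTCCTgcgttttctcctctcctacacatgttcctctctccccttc
Lyz2, chr10:117282326-117282412, minus strand: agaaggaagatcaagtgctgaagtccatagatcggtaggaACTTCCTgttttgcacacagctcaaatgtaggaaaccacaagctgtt
Lyz1, chr10:117292922-117293008, minus strand: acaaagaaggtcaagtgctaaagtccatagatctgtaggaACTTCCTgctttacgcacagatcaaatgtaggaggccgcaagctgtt

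In C1qb the motif began 53 bases before the start, in C1qc 195 bases, in Mrc1 211 bases and in both lysozyme genes 100 bases. The promoters of Lyz1 and Lyz2, set side by side from the start without gaps, were identical at 152 of 250 bases, and at 92% of the 100 bases next to the start. 

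Each library held between 39.9 M and 67.5 M estimated counts (M, mega). Levels are CPM, counts scaled to library size by TMM. Per kilobase of the longest coding transcript in GENCODE M21, Lyz2, the macrophage lysozyme, had the highest mean level over the 20 mice, at 28.6 CPM per kb. The C1q chains followed, C1qa at 12.4, C1qb at 9.63 and C1qc at 8.50 CPM per kb, and then Tyrobp at 5.81 and Cd68, a lysosomal glycoprotein, at 3.89 CPM per kb. Csf1r stood at 2.07, the mannose receptor Mrc1 at 1.78, Adgre1 (the F4/80 antigen) at 1.51 and Ptprc (the pan-leukocyte antigen CD45) at 0.672 CPM per kb. The ranges over mice overlapped between all neighbours in this order. Every member had counts in every mouse. Markers of other blood cells were read to check the label of the genes. Summed over 10 neutrophil markers the level was 0.56 to 2.60 CPM per mouse, with Ly6g and Elane at 0 counts in all 20 mice. For 8 mast cell and eosinophil markers the sum was 0.133 to 0.857 CPM, for 10 T and NK cell markers 1.54 to 4.62 CPM and for 5 B cell markers 1.67 to 3.41 CPM. The 7 dendritic cell markers summed to 25.7 to 42.1 CPM, most of it Zbtb46 (mean 28.7 CPM), a transcription factor of conventional dendritic cells that endothelial cells also express. The 5 erythroid markers summed to a median of 48.0 CPM and at most 133 CPM. The 10 members summed to 51.2 to 252 CPM (sums not scaled by length).

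Csf1r, the receptor tyrosine kinase on which macrophages depend, was at 4.63 to 11.1 CPM in the controls of experiment 2 (replicates 1 to 5: 9.27, 6.82, 9.61, 4.63 and 11.1 CPM). In the controls of experiment 1 it was 7.80, 21.0, 8.82, 13.0 and 7.89 CPM (replicates 6 to 10). At 10 mg/L the 5 mice had 7.28, 9.99, 5.51, 13.7 and 15.9 CPM, and at 500 mg/L 7.56, 7.30, 5.09, 7.80 and 14.6 CPM. Control replicate 7 was the highest mouse, and every pair of groups overlapped. Against all controls the log2 change was 0.07 at 10 mg/L (SE 0.30, 95% interval -0.57 to 0.70) and -0.24 at 500 mg/L (SE 0.31, interval -0.88 to 0.41). Against own controls it was 0.34 (SE 0.34) at 10 mg/L and -0.46 (SE 0.34) at 500 mg/L.

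Ptprc, the phosphatase CD45 of all leukocytes, in the controls of experiment 2 was 2.41 ± 0.32 CPM (SD, n = 5). In the controls of experiment 1 it was 1.99, 5.21, 4.53, 6.09 and 2.67 CPM, at 10 mg/L 3.48 ± 1.35 CPM and at 500 mg/L 3.66 ± 1.77 CPM (SD, n = 5 for either dose). The highest mouse was replicate 1 at 500 mg/L with 6.26 CPM, and this was the only member whose highest mouse was not control replicate 7. Adgre1, an adhesion receptor used to mark mouse macrophages, was 5.04 ± 2.45 CPM in all controls (SD, n = 10), 5.17 ± 2.22 CPM at 10 mg/L and 4.27 ± 1.98 CPM at 500 mg/L (SD, n = 5 each). Cd68 at 500 mg/L lay between 3.88 and 4.05 CPM in 4 mice and at 8.56 CPM in replicate 5.

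Mrc1, which takes up glycoproteins, was 9.30 ± 3.91 CPM in all controls (SD, n = 10), 10.2 ± 4.63 CPM at 10 mg/L and 9.54 ± 3.82 CPM at 500 mg/L (SD, n = 5 each). Tyrobp was 3.51 ± 1.64, 3.35 ± 1.48 and 2.74 ± 0.951 CPM in the same order. Lyz2 was 42.9 ± 20.5 CPM in all controls (SD, n = 10), 31.6 ± 11.9 CPM at 10 mg/L (SD, n = 5), and 25.6, 37.8, 22.6, 27.2 and 51.9 CPM at 500 mg/L. It ranged from 15.8 CPM in replicate 3 at 10 mg/L to 91.1 CPM in control replicate 7. Its copy Lyz1 averaged 0.165 CPM per kb, beside the 28.6 CPM per kb of Lyz2. The Lyz2 transcript shared 32.8% of its 31-base words with that of Lyz1, so how reads were divided between them is uncertain.

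C1qa, C1qb and C1qc, which together form the recognition part of C1, moved together from mouse to mouse. C1qa was 18.1 ± 11.0 CPM in the controls of experiment 1 (11.1, 35.9, 13.5, 21.4 and 8.62 CPM) and 10.4 ± 2.39 CPM in those of experiment 2 (13.0, 9.27, 9.80, 7.23 and 12.5 CPM). It was 11.8 ± 6.34 CPM at 10 mg/L (8.60, 8.38, 5.46, 20.9 and 15.8 CPM) and 11.4 ± 4.70 CPM at 500 mg/L (14.7, 7.24, 7.15, 10.2 and 17.8 CPM; SD, n = 5 each). The control set of experiment 1 reached higher than any other group, through replicates 7 and 9, and all groups overlapped. Across the 20 mice the ratio of C1qb to C1qc stayed between 0.896 and 1.19, while C1qb itself spanned 4.30 to 26.4 CPM.

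**Figure D1:**
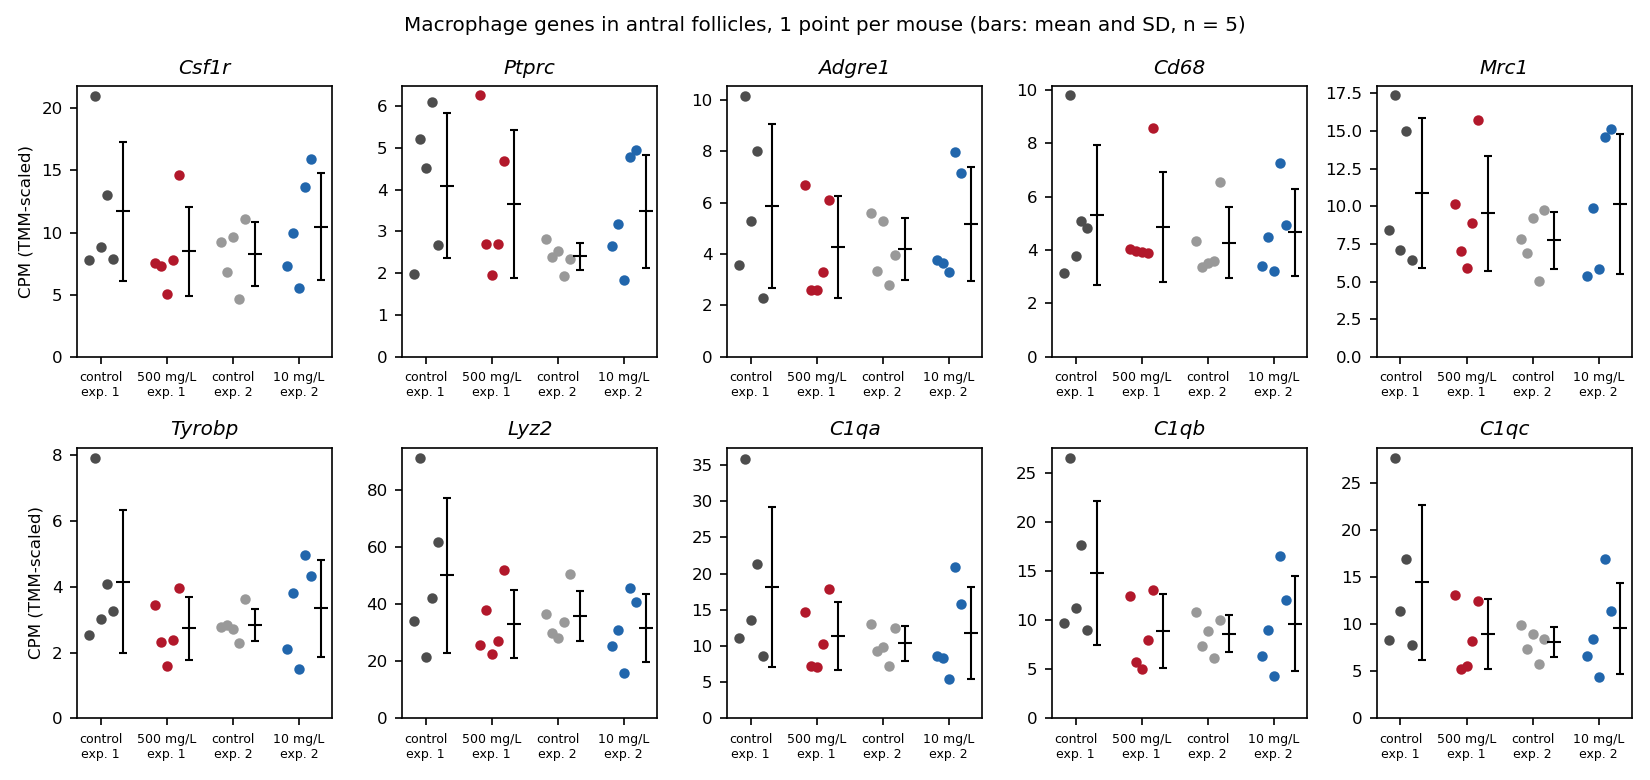
TMM-scaled CPM (vertical axes, from 0) of the 10 macrophage genes, with 1 point per mouse in the 4 sets of 5 mice, and the mean with its SD as a bar beside each set. The sets overlap in every panel, and 1 control of experiment 1 (replicate 7) is the highest point in 9 of the 10.

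None of the 10 members passed an adjusted p of 0.05 in any of the 6 comparisons (edgeR's quasi-likelihood test with Benjamini-Hochberg adjustment over 17810 genes). DESeq2 and limma-voom called none either. Over all genes, 0.00561% passed at 10 mg/L against all controls, 0.0112% at 500 mg/L against all controls, 0.157% between the 2 control sets, and 0% in the comparisons of 10 mg/L and of 500 mg/L with their own controls and in the difference between these effects. At an unadjusted p under 0.05 no member passed in the 5 comparisons that involve a dose. The same threshold was passed by 6.22% of all genes at 10 mg/L and 8.69% at 500 mg/L against all controls, by 6.45% and 5.19% against own controls, and by 5.41% for the difference between the dose effects. These counts of members do not show that exposure left macrophage genes unaltered, since the 95% intervals for either dose reached down to a log2 change of -1.51 (C1qb, 500 mg/L against own controls) and up to 1.24 (Ptprc, 10 mg/L against own controls).

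The direction of the estimates depended on the control set. Against all controls the members' median log2 change was -0.05 at 10 mg/L, with 6 of 10 negative, and -0.28 at 500 mg/L, with 7 of 10 negative. Leaving out 1 mouse moved the first from -0.25 (without replicate 4 at 10 mg/L) to 0.15 (without control replicate 7), and the second from -0.51 (without replicate 5 at 500 mg/L) to -0.060 (without control replicate 7). With controls of the same experiment it was 0.24 at 10 mg/L, with 9 of 10 positive, and -0.53 at 500 mg/L, with 10 of 10 negative. The median over all tested genes was 0.00 in each of these 4 comparisons. The largest of the estimates at 500 mg/L against own controls was that of C1qb, at -0.74 (SE 0.36, interval -1.51 to 0.02, adjusted p = 0.96 by edgeR). Without control replicate 7 the median of that comparison was -0.20 in place of -0.53. The median of 0.24 at 10 mg/L was -0.0057 without replicate 4 of that dose and 0.43 without its replicate 3. Both comparisons with own controls use different mice throughout. The difference between the 2 effects had a median of -0.78 and was negative in 10 of 10 members, and its interval included 0 in each of them.

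Markers of other cells were read in the same comparisons, and none of those given here passed after adjustment (edgeR). At 10 mg/L against own controls 9 of 9 endothelial markers were positive (median log2 change 0.32, 7 under an unadjusted p of 0.05, beside 6.45% of all genes), as were 6 of 6 luteal markers (median 1.61, 3 under that p) and 6 of 6 pericyte and smooth muscle markers (median 0.10, 0 under that p). At 500 mg/L against own controls 5 of 5 erythroid markers were positive (median 1.11, 1 under that p, beside 5.19% of all genes), and 5 of 6 luteal markers were negative (median -0.26). Against own controls 6 of 7 oocyte markers were negative at 10 mg/L (median -0.11) and 7 of 7 positive at 500 mg/L (median 0.19), with 0 under that p. Of 6 theca markers 2 were positive under that p at 10 mg/L, and 1 positive and 1 negative at 500 mg/L. Further lists were read and are not given here. The part of these cells in the members' values was not tested.

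The 2 control sets were compared as well. The controls of experiment 1 were higher than those of experiment 2 in 10 of 10 members, with a median log2 difference of 0.52 beside 0.00 for all genes. Ptprc (0.77, SE 0.34), C1qc (0.84, SE 0.38) and C1qb (0.78, SE 0.36) were under an unadjusted p of 0.05, 3 of 10 members beside 9.78% of all genes, and their adjusted p in edgeR was 0.47 to 0.50. Without control replicate 7 the median difference was 0.22.

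**Figure D2:**
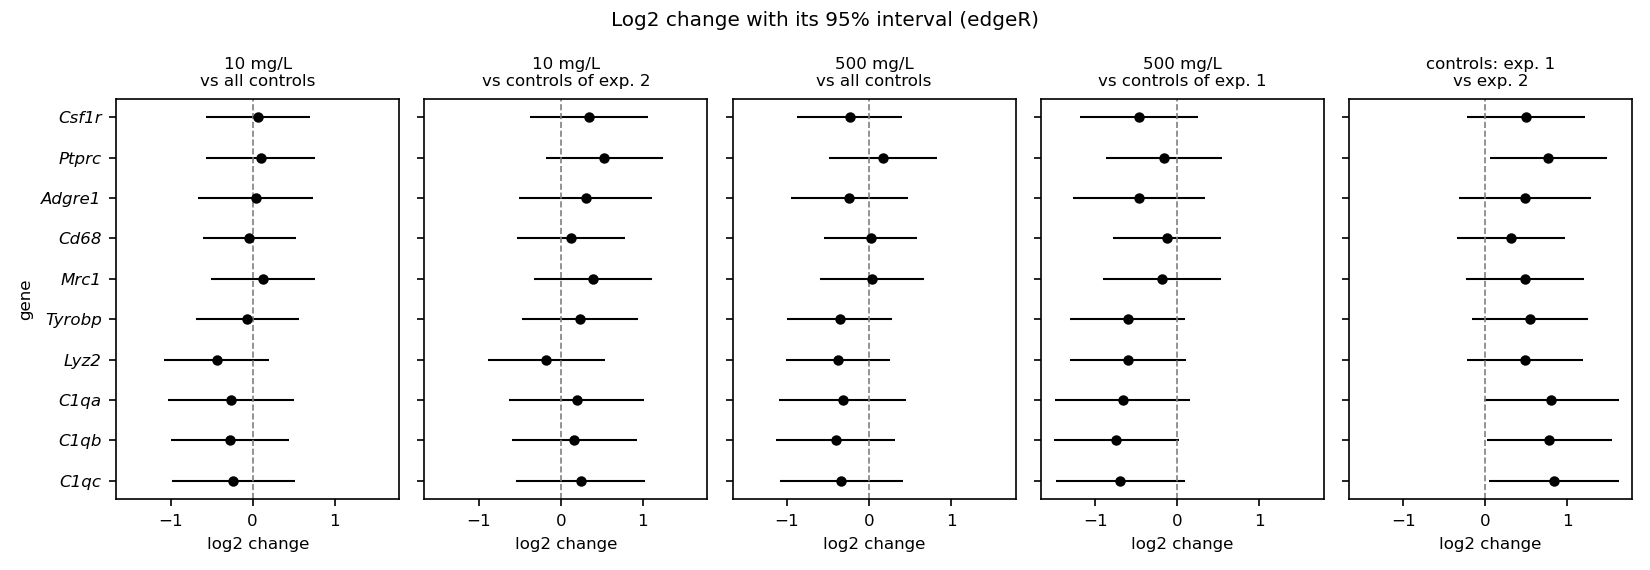
Log2 change of each macrophage gene (horizontal axes) with its 95% interval from the edgeR fit, for either dose against all controls or against controls of the same experiment, and for the 2 control sets. At 10 mg/L the points move from around 0 to mostly positive when only own controls are used, and at 500 mg/L they move further below 0.

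In the authors' deposited table, no member had an adjusted p under 0.05 at either dose. Per the design text of the series, the authors' comparisons combined the controls of both experiments. There C1qb was listed at a signed fold change of -1.29 at 10 mg/L (raw p 0.0273, adjusted p 0.235, from the authors' deposited table). C1qb was listed at -1.28 at 500 mg/L in the authors' deposited table (raw p 0.0323, adjusted p 0.252). C1qa was listed at -1.27 at 10 mg/L in the authors' deposited table (raw p 0.0265, adjusted p 0.232). These entries are named for a raw p under 0.05, and the share of all genes under it there is not given. Against own controls, the log2 change in edgeR was 0.16 for C1qb and 0.19 for C1qa at 10 mg/L. At 500 mg/L it was -0.74 for C1qb.

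Mice of the same group varied widely in these genes. The biological coefficient of variation, the spread between mice of a group beyond counting error, was 35.1% for Cd68 and up to 42.6% for C1qa, beside a median of 17.8% for all tested genes. Between 81.5% and 88.7% of tested genes had a smaller value than the members. Control replicate 7 was highest in 9 members, and replicate 3 at 10 mg/L was lowest in 6. The members' summed level was 252 CPM in control replicate 7 and 51.2 CPM in replicate 3 at 10 mg/L, with a median of 91.1 CPM over the 20 mice. Control replicate 7 also had the highest summed luteal markers of all mice, 3886 CPM beside a median of 1088 CPM, and the highest theca markers, 7600 CPM beside 3143 CPM. Most of that theca sum was Cyp11a1 and Star. The rest of the list, Cyp17a1, Aldh1a1, Ptch1 and Insl3, reached at most 1193, 888, 323 and 19.8 CPM in any mouse. The sum was therefore not read as a measure of theca cells as such. The part of luteal and theca cells in the macrophage signal of this mouse was not tested.

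**Figure D3:**
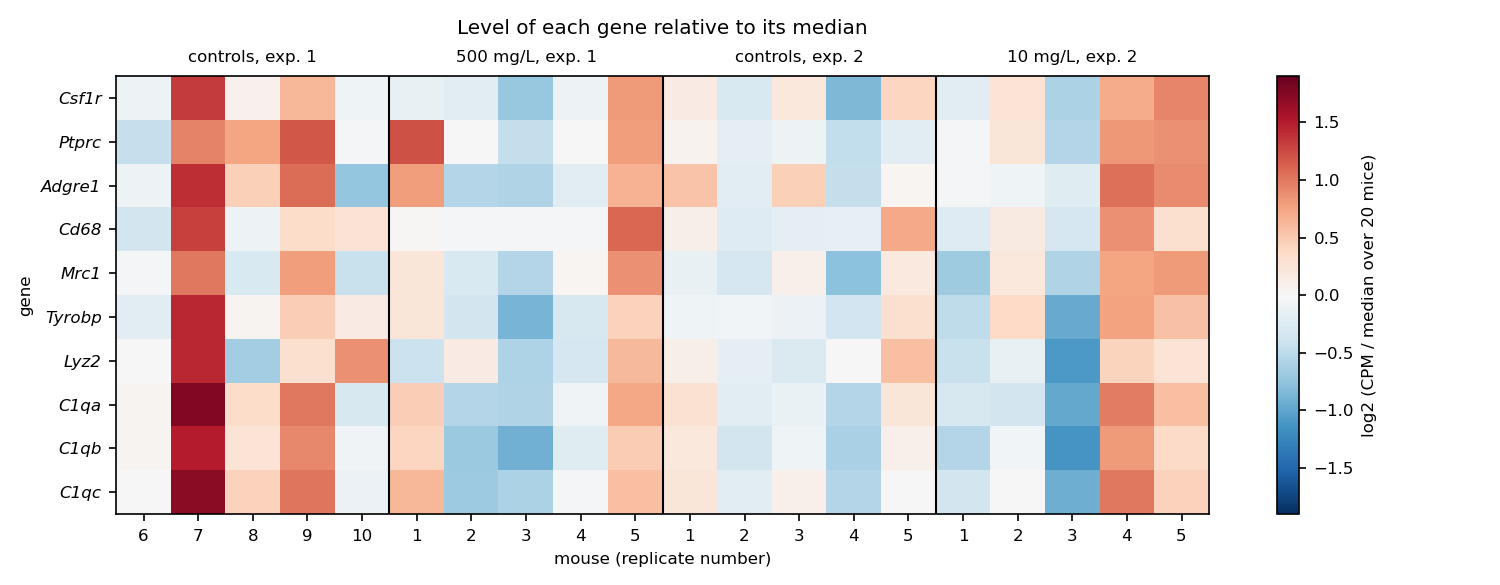
Level of each macrophage gene in each mouse as log2 of its CPM over the gene's median of the 20 mice (colour scale), with mice in columns by group. Columns are mostly of 1 colour: control replicate 7 is high in all 10 genes, and replicate 3 at 10 mg/L is low in all 10.

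The members varied together from mouse to mouse. Over the 45 pairs of members the median Pearson r of log2 CPM across 20 mice was 0.82, from 0.38 for Adgre1 and Lyz2 to 0.99 for C1qb and C1qc. The median was 0.81 within experiment 1, 0.85 within experiment 2 and 0.80 without control replicate 7, which was left out after its values had been seen. With Csf1r as the reference, the correlation was tested for 17809 genes with 100000 permutations of the mice and Benjamini-Hochberg adjustment over all of them. Of these genes, 8.43% had an adjusted p under 0.05, and all 9 other members were among them. Mrc1 had the highest r of any gene, 0.92 (Spearman's rho 0.89, permutation p 1e-05, the smallest these permutations can give, adjusted p 0.0022). It kept an r of 0.90 without control replicate 7 and replicate 5 at 10 mg/L, the 2 mice farthest from the Csf1r median, and had 0.91 within experiment 1 and 0.95 within experiment 2.

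Tyrobp ranked 5 with an r of 0.90 (rho 0.89), and C1qb, C1qa and C1qc followed with 0.88, 0.88 and 0.85. Adgre1 and Cd68 both had an r of 0.81, Ptprc 0.73 and Lyz2 0.70 (rho 0.69, permutation p 0.00062, adjusted p 0.017). Without the 2 farthest mice the r of Lyz2 was 0.59, the lowest of the members. The ratio of Lyz2 to Csf1r ranged from 2.44 in control replicate 8 to 7.84 in control replicate 10, where Lyz2 was 61.8 CPM while Adgre1 was at its lowest of all mice, 2.31 CPM.

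The 15 genes with the highest r to Csf1r over the 20 mice were Mrc1, C3ar1, Anxa11, Fcrls, Tyrobp, Nfam1, Eva1b, Exoc3l4, Mdk, Ms4a4a, Sparcl1, Nckap1l, Vsir, C1qb and Siglec1, with r from 0.88 to 0.92. Of these 15, 3 are members (Mrc1, Tyrobp and C1qb). C3ar1, the receptor for the complement fragment C3a, had an r of 0.92, and Siglec1, the sialoadhesin of tissue macrophages, 0.88.

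Csf1r also followed markers of other cells around the follicle. Over 11 marker lists, the mean log2 CPM of 5 stroma markers had an r of 0.83 with Csf1r (rho 0.79, permutation p 2e-05, adjusted p 0.00017), and 6 pericyte and smooth muscle markers 0.79 (rho 0.80). For 9 endothelial markers r was 0.77 (rho 0.69). For 7 granulosa markers, genes of the cells that line the antrum, r was -0.78 (rho -0.79, permutation p 5e-05, adjusted p 0.00017). Without the 2 farthest mice these were 0.75, 0.79, 0.73 and -0.69, and within experiments 1 and 2 the stroma list had 0.88 and 0.82 and the granulosa list -0.73 and -0.84. Single granulosa markers differed: r was -0.81 for Nr5a2, -0.68 for Inhba and -0.56 for Inha (adjusted permutation p 0.086). For Amh it was 0.23 (adjusted permutation p 0.58). For 6 luteal markers r was 0.57 (rho 0.44, adjusted permutation p of rho 0.087). It was weaker without the 2 farthest mice, at 0.35, and was 0.66 and 0.51 within experiments 1 and 2. Among the other leukocytes, 6 T and NK cell markers had an r of 0.70 (rho 0.63, permutation p 0.00078, adjusted p 0.0017), and 0.51 without the 2 farthest mice. For 6 dendritic cell markers r was 0.62 (rho 0.68, permutation p 0.0037, adjusted p 0.0068), and 0.62 without those mice. Their single markers differed, with an r of 0.68 for Cd4 (adjusted permutation p 0.022), 0.49 for Ncr1, 0.20 for Klrb1c and 0.14 for Gzma. For Ncr1 it was 0.05 without the 2 farthest mice. For Zbtb46, Itgax, Clec9a and Xcr1 r was 0.48, 0.34, 0.31 and 0.32, each with an adjusted permutation p above 0.05. The 6 theca markers had an r of 0.38 (adjusted permutation p 0.14), and the B cell, erythroid and oocyte lists 0.24, 0.25 and 0.01. Single theca markers differed, with an r of 0.68 for Star, 0.55 for Cyp11a1, 0.47 for Aldh1a1 and -0.38 for Cyp17a1. The share of surrounding tissue carried along with the follicles was not measured, and its part in the spread of the macrophage genes was not tested.

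**Figure D4:**
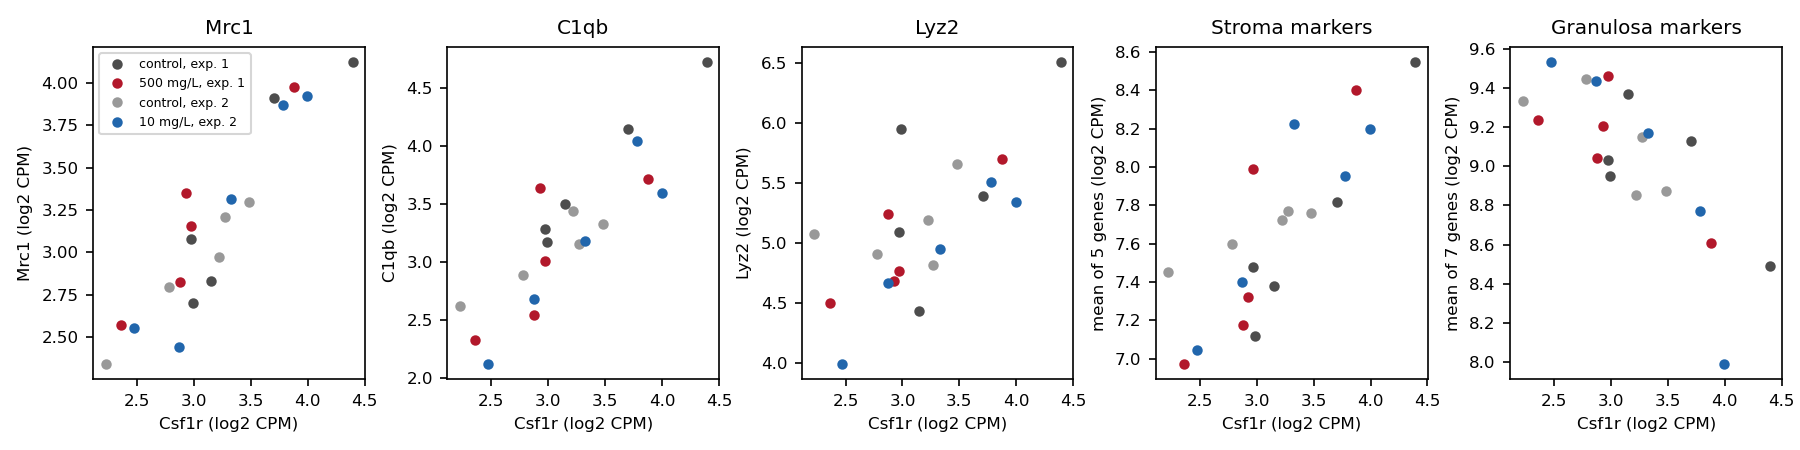
Log2 CPM of Csf1r (horizontal axes) against Mrc1, C1qb, Lyz2, the mean of 5 stroma markers and the mean of 7 granulosa markers (vertical axes), with 1 point per mouse coloured by group and experiment. Mrc1 follows Csf1r most closely (r 0.92), Lyz2 less so (r 0.70), and the mean of the granulosa markers runs the opposite way (r -0.78).

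Other genes of the pathway were read from lists. Of 26 further macrophage genes 25 were tested, and none passed in any of the 6 comparisons (edgeR). Against own controls their median log2 change was 0.13 at 10 mg/L and -0.44 at 500 mg/L. For the correlation with Csf1r 16 of 25 had a positive r and an adjusted permutation p under 0.05, beside 8.43% of all genes in either direction. Genes of the lists below are said to follow Csf1r when they met this. Mpeg1, the pore-forming perforin-2 of macrophages, averaged 18.8 CPM and had an r of 0.83. Mertk, a receptor for dying cells, averaged 59.9 CPM with an r of -0.20 (adjusted p 0.66).

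The ligand Csf1 averaged 11.5 CPM, from 8.68 to 14.3 CPM, with an r of 0.59 to Csf1r (adjusted p 0.066). Its log2 change against own controls was -0.02 at 10 mg/L (SE 0.15) and 0.01 at 500 mg/L (SE 0.15). Of the 9 tested genes for CSF1 and monocyte recruitment none passed in any comparison (edgeR), and 2 followed Csf1r, beside 8.43% of all genes. Ccl2, which draws monocytes from blood, averaged 0.407 CPM.

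Among 15 tested complement genes beyond C1q, none passed in any comparison (edgeR) and 7 followed Csf1r, beside 8.43% of all genes. C1ra and C1s1, the proteases that C1q activates, averaged 47.2 and 51.8 CPM and had an r of 0.83 and 0.76. Of 12 tested genes for DAP12 and ITAM signalling none passed (edgeR) and 8 followed Csf1r, beside the same 8.43%, among them Lyn at 0.73. Syk averaged 30.6 CPM and had an r of 0.07.

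Of 8 tested genes of inflammatory activation none passed (edgeR), and 1, Cd86, followed Csf1r (r 0.75), beside 8.43% of all genes. A count of 1 in 8 is near that share and does not set this list apart. Nos2 averaged 158 CPM with an r of -0.13. Tnf, Il1a and Il6, macrophage cytokines, were at 0.147, 0.135 and 0.0427 CPM and did not reach the filter. Of 7 tested genes of alternative activation none passed (edgeR), and 4 followed Csf1r, beside 8.43% of all genes, led by the scavenger receptor Stab1 at 0.87.

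MHC class II genes, which present peptides to T cells, had medians farther from 0 than the other 6 lists in the 2 comparisons that follow. None of 7 passed after adjustment (edgeR). At 500 mg/L against own controls their median log2 change was -1.04 and 6 of 7 were under an unadjusted p of 0.05, beside 5.19% of all genes. Between the control sets the median was 1.08 and 7 of 7 were under that p, beside 9.78% of all genes. Both comparisons use the same 5 controls of experiment 1, so they are not separate results. The 7 genes were read in the same mice, so their counts are not separate events either. The sum of the 7 genes was 182, 200 and 217 CPM in control replicates 7, 8 and 9 and 66.8 and 82.3 CPM in replicates 10 and 6. At 500 mg/L it was 50.5 to 114 CPM, and in the controls of experiment 2 it was 63.1 to 111 CPM. At 10 mg/L it was 54.5 to 145 CPM, and against own controls 7 of 7 genes were positive there (median 0.41, 1 under an unadjusted p of 0.05). Cd74, the invariant chain, had a log2 change of -1.04 at 500 mg/L against own controls (SE 0.35, adjusted p = 0.95 by edgeR) and -0.65 against all controls (SE 0.36).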

How the data were processed

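Stranded mRNA libraries of 20 mice were sequenced from 1 end for 101 cycles, per the labels' protocols. The submitters' processing notes name Salmon 1.2.0 and R 4.1.2, with edgeR and limma, FastQC 0.11.8 and the GRCm39 build. Neither the annotation nor the way transcripts were joined into genes is stated in those notes or in the labels. The authors deposited estimated counts per gene, not normalised, with 1 column per mouse. Their table of results, per the file headers, holds a score that is a signed linear fold change, and raw and adjusted p-values; it was only read beside the values computed here. No column of per-sample values was left out.

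The members and gene lists were chosen with earlier results of these data known. Named genes were the members, up to 4 genes of highest mean CPM per list and any that passed, the 15 nearest to Csf1r, and Lyz1. Others named here (the cytokines, Ccl2 and the neutrophil genes at 0) were chosen after their values were seen.

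Counts were rounded and fitted in R 4.3.3 with edgeR 4.0.16 (TMM, filterByExpr by group, robust quasi-likelihood, two-sided F-test), with 1 mean per group for the comparisons with all controls and 1 mean per group and experiment for the others. The 6 comparisons were either dose against all controls, either dose against own controls, the control sets and the difference of the dose effects. Benjamini-Hochberg adjustment covered 17810 genes at 0.05. SE and 95% intervals come from the fit. Correlations used log2 CPM with a prior count of 2. Alternatives were DESeq2 1.42.0, limma-voom (limma 3.58.1), other scalings and filters, subsets of mice, experiment as a term and a replicate block. Replicates are separate mice. Each library had at least 39.9 M counts (M, mega), so for the members the spread between mice limits precision more than depth. This does not hold for genes of few counts, such as Lyz1 with 3.01 to 22.6 estimated counts per mouse.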

Additional observations from a re-analysis of the deposited data

Results flagged for a closer look

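Within groups, the highest or lowest mouse was set against the gap to its neighbour, divided by the group's range, for the 10 members and their sum in 5 sets of mice. Of 55 such sets 9 had a mouse beyond Dixon's 95% limit, which chance gives in about 1 of 20 when values are normally distributed. The CPM were not put on a log scale, and each of the 9 was the highest mouse of its set, so the rate expected here is not known. The sets share mice and the members move together, so these are not separate events.

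Control replicate 7 stood apart from the other controls in Csf1r (21.0 CPM, next 13.0), Cd68 (9.79 CPM, next 6.56), C1qa (35.9 CPM, next 21.4), C1qc (27.6 CPM, next 16.9) and Tyrobp (7.92 CPM, next 4.08). In Tyrobp this held also among the 5 controls of experiment 1, at 7.92 CPM. The sum of the 10 members was 252.4 CPM in it and 149.2 CPM in the next control.

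At 500 mg/L, replicate 5 stood apart in Csf1r (14.6 CPM, next 7.80) and in Cd68 (8.56 CPM, next 4.05).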

How the results depend on the processing

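No member was called in any of the 6 comparisons under any alternative run, where adjusted p ranged from 0.31 to 1. With experiment as a term, either dose rests on its own controls by construction, and the members' median log2 change was that of the own-control comparison, 0.24 at 10 mg/L and -0.53 at 500 mg/L. Relative to all controls the sign thereby turned at 10 mg/L for Cd68 (0.13), C1qa (0.19), C1qb (0.16), C1qc (0.24) and Tyrobp (0.23), and at 500 mg/L for Cd68 (-0.13), Ptprc (-0.16) and Mrc1 (-0.19); with limma-voom it turned for Cd68 at 10 mg/L (0.0025). The cause of the turn with limma-voom was not tested. Replicate numbers only name mice: correlations of same-numbered deviations were -0.13 to 0.23. With the replicate number as a block, no member was called. The block gave a median of 0.15 at 10 mg/L and -0.01 at 500 mg/L against all controls, and 0.13 at 10 mg/L against own controls. Under the block at 10 mg/L the sign turned relative to all controls for Cd68 (0.14), C1qa (0.077), C1qb (0.073), C1qc (0.15) and Tyrobp (0.15). At 500 mg/L it turned for C1qa (0.038) and C1qc (0.034). The part of the changed control set in these turns was not tested. No paired analysis was possible for 500 mg/L against own controls or between the control sets, because these groups share no replicate numbers. The difference of the dose effects was not fitted with the block either.

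Leaving out 1 mouse at a time called no member and turned some signs. At 10 mg/L against all controls the log2 change ranged over these fits from -0.17 to 0.21 in Adgre1, -0.13 to 0.26 in Csf1r, -0.26 to 0.14 in Cd68, -0.063 to 0.26 in Ptprc, -0.57 to 0.0028 in C1qa, -0.54 to 0.019 in C1qc, -0.059 to 0.29 in Mrc1 and -0.25 to 0.15 in Tyrobp. At 500 mg/L against all controls it ranged from -0.28 to 0.20 in Cd68, -0.11 to 0.33 in Ptprc and -0.22 to 0.18 in Mrc1. Against own controls at 10 mg/L it ranged from -0.086 to 0.33 in Cd68, -0.11 to 0.38 in C1qa, -0.11 to 0.36 in C1qb and -0.062 to 0.43 in C1qc, and at 500 mg/L from -0.43 to 0.21 in Cd68, -0.45 to 0.024 in Ptprc and -0.44 to 0.048 in Mrc1. For Cd68 it ranged from -0.024 to 0.52 between the control sets and from -0.56 to 0.086 for the difference of the dose effects. The median correlation of members with Csf1r ranged from 0.80 to 0.89.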

Other observations

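Single markers of dendritic cells and NK cells were read beside the members. Zbtb46, of the same dendritic cell list, was higher than those below, at a mean of 28.7 CPM (22.9 to 38.8 CPM). Clec9a, a receptor of cross-presenting dendritic cells, averaged 0.256 CPM and was 1.24 higher on the log2 scale in the controls of experiment 1 than in those of experiment 2 (SE 0.44, unadjusted p = 0.011, adjusted p = 0.35 by edgeR). Xcr1, a chemokine receptor of the same cells, averaged 0.243 CPM and was 1.38 higher (SE 0.48, adjusted p = 0.34 by edgeR). Clec9a and Xcr1 fell to 0.0855 and 0.0433 CPM in their lowest mice, where counts are few and counting error is large. Of the 6 tested dendritic cell genes 5 were higher in the controls of experiment 1. The other, Itgax, averaged 1.71 CPM and had a log2 difference of -0.59. Klrb1c, the NK1.1 antigen, averaged 0.811 CPM, and was 0.814 ± 0.143 CPM in the controls of experiment 1 and 0.388 ± 0.163 CPM in those of experiment 2 (SD, n = 5 each). It was 0.959 ± 0.499 CPM at 10 mg/L and 1.08 ± 0.416 CPM at 500 mg/L (SD, n = 5 each). The log2 change of Klrb1c was 1.31 at 10 mg/L against own controls (SE 0.37, adjusted p = 0.56 by edgeR). At 500 mg/L it was 0.85 against all controls (SE 0.35, adjusted p = 0.51 by edgeR), which include the lower controls of experiment 2. The own controls of 500 mg/L are those at 0.814 CPM. Of the 6 tested T and NK cell genes, 5 were positive at 10 mg/L against own controls. At 500 mg/L against all controls 2 of them were positive and 4 negative. None of Clec9a, Xcr1 and Klrb1c passed after adjustment in any comparison.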
